A study of Sus scrofa with 2 samples.

Results

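The solute carrier transporters are described here across 7 classes of muscle cells in 2 single-cell libraries. The genes were chosen by their symbol, an SLC family and member number or the stem SLCO, and by their total count of at least 200 UMIs over both libraries. A UMI, or unique molecular identifier, marks 1 counted RNA molecule. Of 21301 features, 326 had such a symbol and 169 of these reached 200 UMIs. Just inside that limit stood SLC37A2, with 106 UMIs in the GDSS library and 103 in the Yorkshire library, and SLC66A1, with 67 and 143. Just outside it stood SLC16A8, with 98 UMIs in GDSS and 92 in Yorkshire, and SLC10A4, with 92 and 94. Among the 169 genes, 5 match the pattern by symbol only: SLC9A3R1, SLC9A3R2, SLC2A4RG, SLC4A1AP and SLC7A6OS carry a further suffix and name scaffolds, regulators or neighbours of a carrier, so they were counted apart.

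The cells came from the longissimus dorsi, the long muscle of the back, of piglets. In the first library they came from GDSS, the Guangdong small-eared spotted pig, and in the second from Yorkshire, breeds said in the design text to differ in fat within the muscle. Per the labels, 1 g of muscle was dissociated per piglet, red cells were lysed and dead cells were removed with magnetic beads. There was 1 library per breed, and the number of piglets in each, their sex and the meaning of the "P0" in the titles are not given in the sources used here. Breed therefore cannot be told apart from animal, preparation or library, no test between breeds was possible, and every 95% interval covers counting error only. The labels call the cells intramuscular vascular stem cells, and the markers of 7 different classes were found in them.

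Before filtering, GDSS had 12286 barcodes with 42093851 UMIs and Yorkshire 14695 barcodes with 54300953 UMIs. Of the barcode sequences, 47 occur in both. After filtering, 10582 GDSS and 12667 Yorkshire cells were kept, of which 86.0% and 67.6% were placed in a class by markers. No transporter gene was among these markers. Stromal cells, the fibro-adipogenic connective tissue cells of muscle, numbered 7399 in GDSS and 1715 in Yorkshire, and satellite cells, the muscle stem cells, 307 and 4008. The other classes held 203 and 1477 endothelial, 308 and 741 mural (pericyte and smooth muscle), 262 and 258 glial (Schwann), 221 and 67 macrophage and 401 and 301 tenocyte cells. A class is a range of marker counts, not a sharp type: 3343 of the GDSS and 659 of the Yorkshire stromal cells, and 190 and 2103 of the satellite cells, had exactly the number of markers needed. The UMIs of a class summed to between 489765 (Yorkshire macrophages) and 24642779 (GDSS stromal cells), so 1 UMI was worth 2.04 and 0.0406 CPM (counts scaled to a class total of 1000000) in those sums.

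Tenocytes overlapped with stromal cells in their markers: in the tenocyte class the stromal list summed to 10272 CPM in GDSS and 8706 CPM in Yorkshire, beside 10192 and 9322 CPM of the tenocyte list, and a cell that met both rules was placed with the tenocytes. When classes were taken from clusters, 73.8% of the GDSS and 76.4% of the Yorkshire tenocytes lay in tenocyte clusters. Markers of further cell types were present in several classes. In the macrophage class the neutrophil list summed to 337 CPM in GDSS and 731 CPM in Yorkshire, and the lymphatic list, which holds the macrophage-shared gene LYVE1, to 392 and 576 CPM. In the satellite class the mural list summed to 274 CPM in GDSS and 154 CPM in Yorkshire and the myofibre list to 425 and 201 CPM. In the stromal class the nerve sheath list reached 93.3 CPM in GDSS and 265 CPM in Yorkshire and the tenocyte list 296 and 465 CPM. The part of these cells in the results below was not tested.

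Solute carriers are membrane proteins that move small molecules down a gradient or by coupling their movement to that of ions. Families are numbered by sequence and tend to share a substrate: SLC7 and SLC38 carry amino acids, SLC2 glucose, SLC39 and SLC30 zinc and other metals, and SLC25 the metabolites that cross the inner mitochondrial membrane. In muscle they are best known through SLC2A4, the insulin-responsive glucose carrier of myofibres. Connective tissue, vessel, nerve and immune cells of the same tissue have carriers of their own.

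The mitochondrial SLC25 genes, 31 in number, held 58.7% of the 752748 transporter UMIs, the 28 amino acid carriers 12.7% and the 23 metal ion carriers 8.32%. A single gene, the ADP/ATP carrier SLC25A6, held 294036 UMIs. These are shares of counted molecules, not levels per length. Summed over all 169 genes, the transporters took the most in satellite cells, a rank that rests on SLC25A6, with 10045 CPM in GDSS and 10184 CPM in Yorkshire, and the other 6 classes lay between 5973 and 7875 CPM in GDSS and between 6301 and 8669 CPM in Yorkshire. Without SLC25A6 satellite cells had 4400 CPM in GDSS and 4908 CPM in Yorkshire, below mural cells (5029 and 5580 CPM) and glia (5226 and 5412 CPM). The mitochondrial group alone, SLC25A6 included, gave 7496 CPM in GDSS satellite cells and 6844 CPM in Yorkshire satellite cells.

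To ask which class carries which transporter, UMIs were summed per library and class, and each class was compared with the mean of the other 6 by edgeR's quasi-likelihood test over 11515 genes. A gene was called at a Benjamini-Hochberg adjusted p under 0.05 and a fold of at least 2. Of the 169 transporters, 109 had their highest level in the same class in both libraries (64.5%, against 58% of all genes tested), and 89 were also called higher in that class (52.7%, against 41%). By class these were 28 led by macrophages, 13 by glia, 11 each by stromal cells and tenocytes, 9 each by endothelial and mural cells and 8 by satellite cells. A call in 1 class was made for 56 genes, in 2 classes for 44, in 3 for 14 and in 4 for 1, and 54 were called higher in none (32.0%, where 44.2% of all genes were). No class, in either direction, was called for 39 (23.1%, against 37% of all genes). The transporters had to hold at least 200 UMIs and all genes tested at least 100, so these shares rest on unlike limits. A transporter can also reach 200 UMIs mainly through its leading class. Both limits hold for every share of transporters called that is set beside all genes below. Their part in the differences was not tested.

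Macrophages had 43 transporters called higher (25.4% of them, where 15.3% of all genes were) and 25 called lower (background 18.3%). Stromal cells had 30 higher (background 14.5%) and 12 lower (4.23%), and tenocytes 31 higher (14.5%) and 12 lower (7%). Satellite cells had 26 higher (10.3%) and 15 lower (7.85%). Endothelial cells, the class with the most transporters called lower, had 20 higher (13.2%) and 28 lower (8.1%). In mural cells 19 were higher (12.5%) and 17 lower (5.18%), and in glia 21 were higher (11%) and 14 lower (8.17%). With at most 5% mitochondrial UMIs per cell, 5 were called higher in mural cells and 12 in glia. The shares of all genes at that limit are not given here. The median log2 fold of the transporters was 0.28 in stromal cells, where that of all genes was 0.12, and 0.31 against 0.08 in tenocytes, 0.04 against -0.24 in macrophages, 0.02 against 0.05 in satellite cells, -0.13 against 0.07 in mural cells, and -0.20 in endothelial cells and glia, against -0.03 and -0.06.

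**Figure D1:**
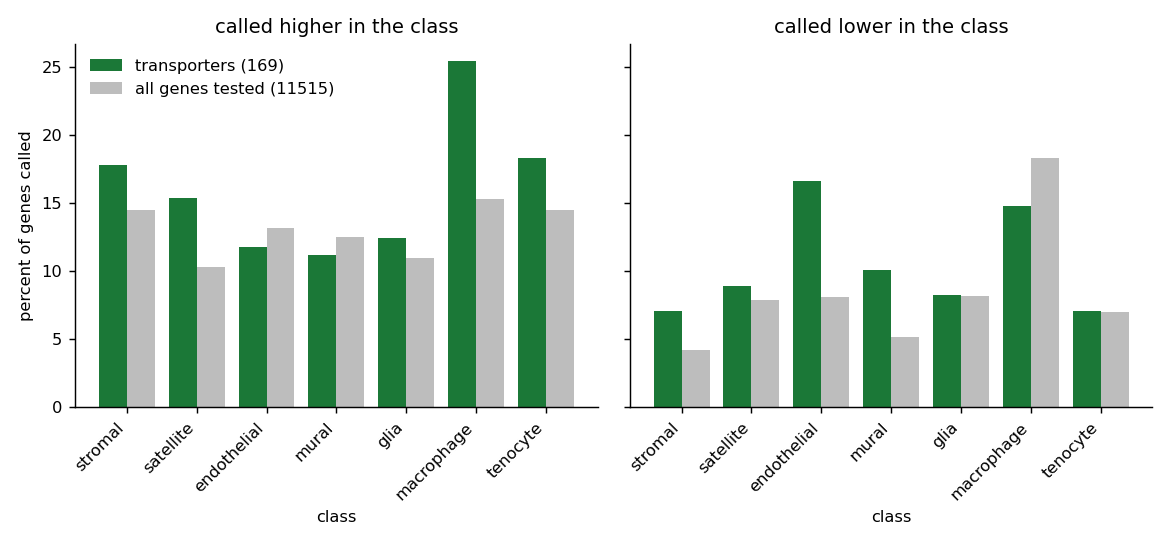
Percent of the 169 transporters (green) and of all 11515 genes tested (grey) that were called higher (left) or lower (right) in each class against the mean of the other 6. The green bar reaches 25.4% for macrophages, above the grey bar of 15.3%, while in endothelial cells more transporters were called lower than higher.

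Each class is 2 sums, 1 per library, so p-values measure the spread between those sums with 6 residual degrees of freedom, and a gene with 200 UMIs is measured best in the classes with the most UMIs. The fitted fold also averages logs over classes at 0 counts, so a gene can be called higher in a class while another class holds far more of it. The levels below are therefore CPM as observed, and a call is given beside them.

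Of the 28 amino acid carriers 22 had the same leading class in both libraries (78.6%, against 58% of all genes). Of the 28, 20 were also called there, where 41% of all genes were. Macrophages had 14 of the 28 called higher (50%, where 15.3% of all genes were). Higher calls elsewhere were nearer to the share of all genes. Tenocytes had 7 (25%, against 14.5%), stromal cells 6 (21.4%, 14.5%), satellite cells 5 (17.9%, 10.3%), endothelial cells 5 (17.9%, 13.2%), glia 3 (10.7%, 11%) and mural cells 2 (7.14%, 12.5%). Called lower were 7 in mural cells (25%, against 5.18%) and 2 in macrophages (7.14%, 18.3%). Stromal cells (4.23%), satellite cells (7.85%), endothelial cells (8.1%), glia (8.17%) and tenocytes (7%) each had 3 lower (10.7%). SLC7A11, the cystine and glutamate exchanger, had 191 CPM in GDSS macrophages and 91.9 CPM in Yorkshire macrophages, and no other class passed 13.6 CPM in GDSS or 5.82 CPM in Yorkshire. SLC15A3, a lysosomal carrier of histidine and small peptides, had 42.1 CPM in GDSS macrophages and 51.0 CPM in Yorkshire macrophages, with at most 1.52 and 4.49 CPM elsewhere. Both were called in macrophages by edgeR, with adjusted p = 6.18e-12 for SLC7A11 and 5.88e-10 for SLC15A3.

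SLC3A2 encodes the heavy chain that brings the SLC7 light chains to the membrane, and it was also called higher in macrophages (edgeR adjusted p = 5.32e-06). It had 119.7 CPM there in GDSS and 145 CPM in Yorkshire, but glia reached 95.01 and 113 CPM and Yorkshire satellite cells 105 CPM. The light chain genes SLC7A5, a large neutral amino acid exchanger, and SLC7A7, a cationic amino acid exchanger, were led by macrophages too. SLC7A5 had 30.9 CPM in GDSS and 16.3 CPM in Yorkshire macrophages, where 1 UMI is worth 2.04 CPM in Yorkshire. GDSS mural cells (24.3 CPM) and Yorkshire satellite cells (13.1 CPM) were close behind. SLC7A7 had 73.0 and 87.8 CPM in macrophages, followed by endothelial cells with 36.4 and 26.9 CPM.

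A different pair stood in stromal cells and tenocytes, which share stromal markers as given above; the part of these was not tested. SLC7A10, a carrier of small neutral amino acids known in mouse and human as a surface marker of white adipocytes, had 22.4 CPM (95% interval 20.5 to 24.3, 551 UMIs) in GDSS stromal cells and 17.01 CPM (14.03 to 20.4, 114 UMIs) in Yorkshire stromal cells. Tenocytes had 5.07 CPM in GDSS and 2.11 CPM in Yorkshire. All 5 other classes were at 0 in GDSS and at or below 0.160 CPM in Yorkshire. The adipocyte marker list summed to 18.8 CPM in GDSS and 8.06 CPM in Yorkshire stromal cells, and its part was not tested. SLC43A1, a carrier of branched-chain and aromatic amino acids, had 10.3 CPM in GDSS and 21.6 CPM in Yorkshire stromal cells, and 7.80 and 13.2 CPM in tenocytes, with at most 1.70 and 2.49 CPM elsewhere. Its relative SLC43A3, known in human cells as a nucleobase carrier, was led by tenocytes with 29.6 CPM in GDSS and 59.6 CPM in Yorkshire. All of these were called by edgeR in the classes named, with adjusted p from 6.04e-09 (SLC7A10, stromal) to 0.000255 (SLC7A10, tenocyte).

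Mural cells led SLC7A2, a carrier of arginine and lysine, with 37.2 CPM in GDSS and 74.4 CPM in Yorkshire, and SLC6A9, the glycine carrier, with 15.4 and 29.9 CPM. Glia followed for SLC7A2 at 15.3 and 14.8 CPM, from 9 and 11 UMIs (a call lost with at most 5% mitochondrial UMIs, edgeR adjusted p = 0.580), and no other class passed 4.18 CPM. The amino acid carriers with most UMIs were broader. SLC38A2, which takes up small neutral amino acids with sodium, was called in no class: it ranged from 127 CPM (macrophages) to 551 CPM (glia) in GDSS and from 282 CPM (macrophages) to 952 CPM (endothelial cells) in Yorkshire. SLC1A5, the glutamine carrier, was called higher in stromal cells (169 and 142 CPM), satellite cells (102 and 176 CPM) and macrophages (109.8 and 169 CPM) and lower in mural cells (23.1 and 18.3 CPM).

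**Figure D2:**
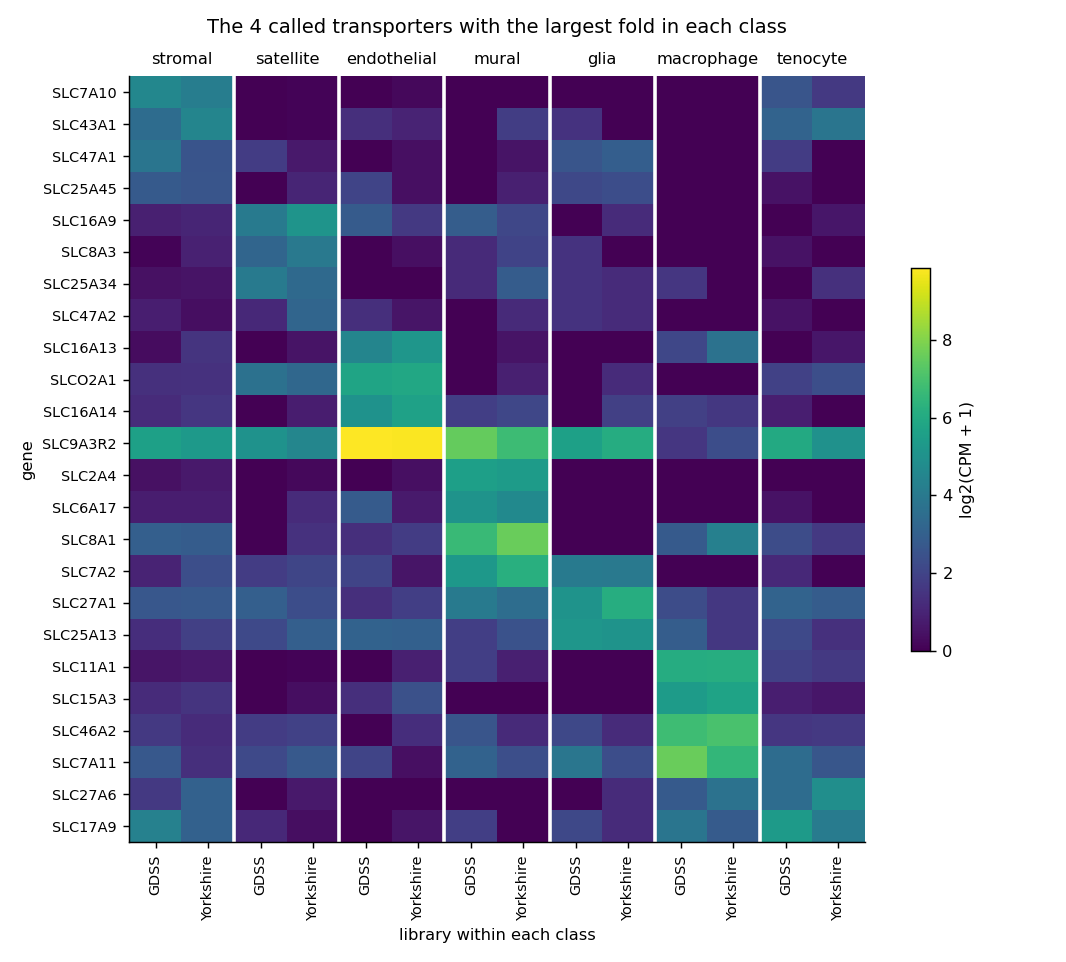
Level, as log2(CPM + 1), of the 4 called transporters with the largest fold in each class (rows, each gene once) in the 7 classes (column blocks), with GDSS left of Yorkshire in each block. The 2 columns of a block look alike for most rows: SLC2A4 is bright only in the mural block (46.1 CPM in GDSS, 41.6 CPM in Yorkshire), and SLC9A3R2 is brightest in the endothelial block, at 928 and 893 CPM.

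The sugar carrier families SLC2, SLC5, SLC45 and SLC50 had 10 members, among them SLC5A6, which carries vitamins such as biotin and not sugar. Of the 10, 4 were called higher in stromal cells (40%, against 14.5% of all genes), and 1 or 2 in each other class except endothelial cells, where none was. SLC2A4 stood in mural cells. It had 46.1 CPM (32.3 to 63.9, 36 UMIs) in GDSS mural cells and 41.6 CPM (33.8 to 50.6, 100 UMIs) in Yorkshire mural cells, and at most 0.365 CPM in GDSS and 0.597 CPM in Yorkshire in any other class (edgeR adjusted p = 1.23e-09). Myofibres, where SLC2A4 is best known, were not a class here. The myofibre list summed to 118 CPM in GDSS and 143 CPM in Yorkshire mural cells, and its part was not tested. SLC5A3, which takes up myo-inositol, was led by glia with 50.9 and 78.2 CPM.

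SLC5A10 and SLC50A1 held the most UMIs of the sugar group, and both were called higher in stromal cells. SLC50A1, a sugar efflux carrier, had 50.1 CPM in GDSS and 46.8 CPM in Yorkshire stromal cells, 45.2 and 31.1 CPM in tenocytes, and 9.36 and 11.8 CPM in satellite cells, where it was called lower. SLC5A10 had 47.8 CPM in GDSS and 77.1 CPM in Yorkshire stromal cells, and 46.7 and 63.3 CPM in macrophages. Its RefSeq span overlaps those of FAM83G, at 10.7 and 2.54 CPM in stromal cells, and GRAP. Whether the counting used strand is not stated, so their reads may not be told apart.

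Of the 8 monocarboxylate carriers 6 had the same leading class in both libraries (75%, against 58% of all genes). In endothelial cells 3 were called higher (37.5%, where 13.2% of all genes were). SLC16A13 and SLC16A14 were endothelial, with 21.3 CPM in GDSS and 34.9 CPM in Yorkshire for SLC16A13 and 31.9 and 49.2 CPM for SLC16A14. Outside endothelial cells SLC16A14 did not pass 3.33 CPM, and SLC16A13, whose RefSeq span overlaps that of SLC16A11, reached 3.29 and 12.3 CPM in macrophages. SLC16A9, linked in human to carnitine efflux, was led by satellite cells with 15.2 CPM (8.10 to 26.02, 13 UMIs) in GDSS and 33.6 CPM (30.6 to 36.8, 456 UMIs) in Yorkshire, with at most 6.41 and 3.33 CPM elsewhere. SLC16A7, a high-affinity lactate and pyruvate carrier, had 69.1 and 85.8 CPM in macrophages and 15.6 and 46.5 CPM in stromal cells, and was called in both. Adjusted p of these calls in edgeR ran from 3.26e-10 (SLC16A7) to 1.67e-07 (SLC16A9) in the leading class. SLC16A1, the widespread lactate carrier, ranged from 17.1 to 48.8 CPM in GDSS and from 20.4 to 66.2 CPM in Yorkshire and was called only as lower in mural cells (17.9 and 24.1 CPM).

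Of the 23 metal ion carriers 7 were called higher in macrophages (30.4%, against 15.3% of all genes), 7 higher in tenocytes (30.4%, 14.5%) and 7 lower in glia (30.4%, 8.17%). SLC11A1, which pumps iron and manganese out of the phagosome, had 67.1 CPM (54.7 to 81.4) in GDSS macrophages and 69.4 CPM (48.1 to 97.0) in Yorkshire macrophages, and at most 2.73 and 2.11 CPM elsewhere (edgeR adjusted p = 8.56e-12). The neutrophil markers given above lie in the same class. SLC39A14, a zinc and iron importer, had 209 CPM in GDSS and 118 CPM in Yorkshire macrophages, and no other class passed 27.1 and 40.7 CPM. SLC39A8, a related importer, was led by endothelial cells with 18.2 and 12.7 CPM, close to the 9.86 and 12.3 CPM of macrophages and the 8.97 and 9.99 CPM of stromal cells, and it was called in all 3.

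The iron exporter SLC40A1 was called higher in stromal cells (51.1 CPM in GDSS, 83.1 CPM in Yorkshire), tenocytes (54.98 and 67.5 CPM) and macrophages (36.8 and 12.3 CPM). The list of iron handling genes, ferritin and haem oxygenase among them, had 3 measured members. All 3 were called higher in macrophages, where 15.3% of all genes were. HMOX1, the haem oxygenase, had 4032 CPM in GDSS and 1252 CPM in Yorkshire macrophages, and at most 137 and 60.1 CPM elsewhere. The zinc carrier SLC39A1 and the copper carrier SLC31A1, with most UMIs of the group, were called higher in no class. SLC39A1 was called lower in glia, at 57.7 and 51.2 CPM.

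Ion exchangers and cotransporters, 20 genes, had the same leading class in both libraries for 17 (85%, against 58% of all genes). Mural cells had 5 called higher (25%, where 12.5% of all genes were). Higher calls were nearer to those of all genes in macrophages (4, 20%, against 15.3%) and stromal cells (4, 20%, 14.5%). The same holds for satellite cells (3, 15%, 10.3%), glia (3, 15%, 11%) and tenocytes (3, 15%, 14.5%). Endothelial cells had 1 called higher (5%, 13.2%) and 5 lower (25%, 8.1%). Lower calls in the other classes ran from 0 in satellite cells (7.85%) to 3 in macrophages (15%, 18.3%). SLC8A1, the sodium and calcium exchanger of contractile cells, had 101 CPM in GDSS and 193 CPM in Yorkshire mural cells, with at most 6.90 CPM elsewhere in GDSS and 18.4 CPM in Yorkshire. SLC8A3, its paralogue known from skeletal muscle, was led by satellite cells, with 8.19 CPM (7 UMIs) in GDSS and 14.8 CPM (201 UMIs) in Yorkshire, and at most 1.70 and 2.91 CPM elsewhere. The paralogues thus had different leading classes, each called by edgeR there (adjusted p = 1.98e-11 for SLC8A1 and 3.80e-06 for SLC8A3).

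SLC4A7, a sodium bicarbonate cotransporter, was called higher in mural cells (92.2 and 258 CPM), macrophages (80.9 and 77.6 CPM) and satellite cells (39.8 and 84.0 CPM), and lower in endothelial cells (4.56 and 10.9 CPM) and tenocytes (6.63 and 10.0 CPM). SLC4A3, a chloride and bicarbonate exchanger, was led by satellite cells at 18.7 and 17.6 CPM. SLC20A2, a phosphate importer, was called in mural cells (24.3 and 37.01 CPM) and glia (15.3 and 20.2 CPM), and no other class passed 3.04 CPM. SLC12A2, the sodium, potassium and chloride cotransporter, was led by glia at 96.7 and 155 CPM. Among the sodium pump genes, which build the gradient these carriers use, ATP1B2 was called higher in mural cells (57.7 CPM in GDSS, 133 CPM in Yorkshire) and ATP1B1 in macrophages (208 and 157 CPM).

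**Figure D3:**
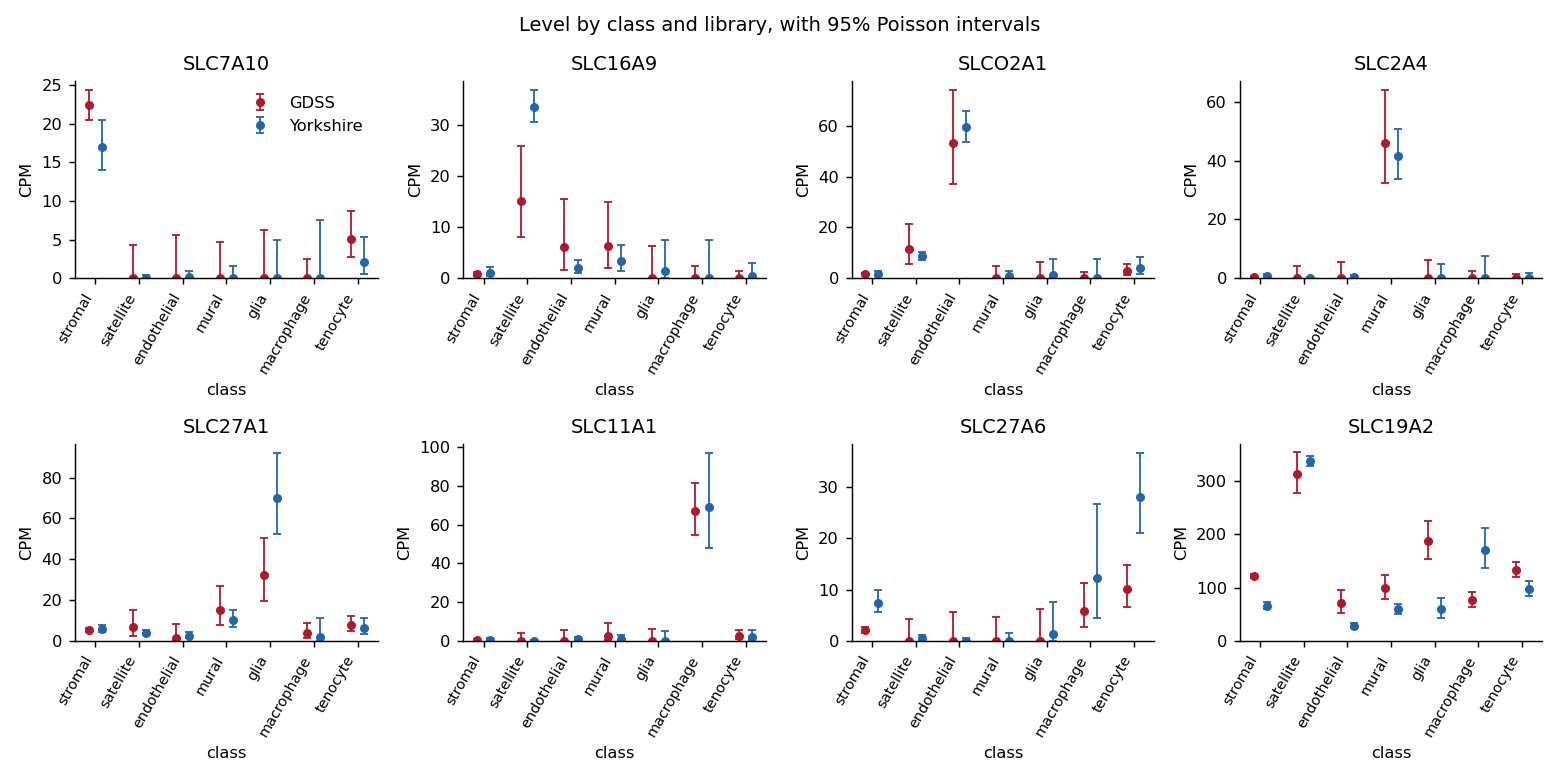
CPM of 8 transporters in the 7 classes, GDSS in red left of Yorkshire in blue, with exact 95% Poisson intervals that cover counting error only. Each of the first 7 genes stands highest in the same class in both libraries, and SLC19A2 is highest in satellite cells (314 CPM in GDSS, 337 CPM in Yorkshire) but well above 0 in every class.

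Of the 9 fatty acid, choline and bile acid carriers, 3 were called higher in glia (where 11% of all genes were) and 2 in tenocytes (14.5%). SLC27A1, a long-chain fatty acid carrier, had 32.2 CPM (19.4 to 50.3) in GDSS glia and 70.1 CPM (52.4 to 91.9) in Yorkshire glia, with at most 15.4 and 10.4 CPM elsewhere, both in mural cells. SLC44A1, the choline carrier, had 148 CPM in GDSS and 225 CPM in Yorkshire glia and at most 63.7 and 80.0 CPM elsewhere, both in stromal cells. SLC27A6, a fatty acid carrier known from heart, was led by tenocytes with 10.1 CPM (26 UMIs) in GDSS and 27.9 CPM (53 UMIs) in Yorkshire. Macrophages followed at 5.92 and 12.3 CPM and stromal cells at 2.07 and 7.46 CPM, and the other 4 classes did not pass 1.35 CPM. It was called in all 3 classes, with edgeR adjusted p = 2.88e-08 in tenocytes. SLC10A1, named for the bile acid carrier of liver, was called higher in tenocytes (91.6 and 81.2 CPM) and lower in macrophages (15.1 and 10.2 CPM). Tenocytes led it only in Yorkshire. In GDSS endothelial cells (161 CPM), stromal cells (112 CPM), satellite cells and mural cells all held more than tenocytes. Whether reads of the neighbouring gene SRSF5 were counted to SLC10A1 could not be checked, so its levels and ratios may not be its own alone.

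Carriers of vitamins and nucleosides were the only group in which every member, all 10, had the same leading class in both libraries (58% of all genes did). Of these, 9 were called there (41% of all genes were). SLC19A2, a thiamine carrier, had 314 CPM in GDSS and 337 CPM in Yorkshire satellite cells, and at most 187 and 172 CPM elsewhere (edgeR adjusted p = 2.60e-05). SLC46A2, of the folate carrier family, had 109.8 CPM in GDSS and 131 CPM in Yorkshire macrophages and at most 5.12 and 2.73 CPM elsewhere. SLC29A1, the equilibrative nucleoside carrier, was the gene called higher in 4 classes: stromal (52.7 and 42.4 CPM), endothelial (34.9 and 17.1 CPM), mural (20.5 and 26.6 CPM) and tenocyte (26.1 and 16.9 CPM). Glia had 0 and 1.35 CPM.

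Every one of the 10 organic ion carriers was called higher in at least 1 class, whereas 44.2% of all genes were called higher in none. SLCO2A1, the prostaglandin carrier, had 53.2 CPM in GDSS and 59.5 CPM in Yorkshire endothelial cells (edgeR adjusted p = 1.02e-10). It was also called in satellite cells, at 11.7 and 8.77 CPM. A rough free RNA level for this gene there, from the median of other classes' markers, was 0.0472 and 0.375 CPM. The part of free RNA in the call was not tested. SLC22A17, known as a lipocalin receptor, was led by glia at 168 and 191 CPM. Of the pair of multidrug extrusion carriers, SLC47A1 was led by no class in both libraries, with 13.1 CPM in GDSS stromal cells, 4.92 CPM in Yorkshire stromal cells and 6.74 CPM in Yorkshire glia, and its call in glia (3 and 5 UMIs) was lost under 4 alternatives (edgeR adjusted p from 0.0584 to 0.160 and log2 folds from 1.94 to 3.08 there, against 3.06 reported). SLC47A2 was called in satellite cells, at 1.17 CPM (1 UMI) in GDSS and 8.18 CPM (111 UMIs) in Yorkshire.

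The small group of neurotransmitter and creatine carriers, 6 genes, had 4 members with the same leading class in both libraries (66.7%, near the 58% of all genes). Each of the 4 was led by a different class. SLC6A8, the creatine carrier, was led by glia with 103 CPM in GDSS and 132 CPM in Yorkshire. SLC17A9, which loads nucleotides into vesicles, was led by tenocytes with 40.9 and 16.3 CPM, ahead of stromal cells with 19.4 and 7.31 CPM. SLC6A17, a vesicular amino acid carrier known from brain, was led by mural cells with 32.0 and 24.9 CPM. SLC6A4, the serotonin carrier, was led by endothelial cells with 9.11 CPM (6 UMIs) in GDSS and 12.5 CPM (78 UMIs) in Yorkshire. All 4 were called in these classes, with edgeR adjusted p from 7.56e-09 (SLC17A9) to 0.00133 (SLC6A8).

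Of the 31 mitochondrial carriers 15 were called higher in no class (48.4%, against 44.2% of all genes) and 10 in neither direction (32.3%, 37%), shares near those of all genes. SLC25A6 had 5644 CPM in GDSS and 5276 CPM in Yorkshire satellite cells, and the other classes lay between 1596 and 2846 CPM in GDSS and between 1439 and 3089 CPM in Yorkshire. Its paralogue SLC25A5 was led by macrophages (274 and 257 CPM), and SLC25A4, the isoform of heart and muscle, was called in satellite (151 and 112 CPM) and mural cells (129 and 249 CPM). The 3 paralogues are similar in sequence, so how the counting split reads between them is uncertain. SLC25A3, the phosphate carrier, was called in no class, at 600 to 1274 CPM in GDSS and 545 to 1378 CPM in Yorkshire.

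Lower in count but called were SLC25A13 in glia, SLC25A34 in satellite cells and SLC25A45 in stromal cells. SLC25A13, the aspartate and glutamate carrier, had 35.6 CPM in GDSS and 32.4 CPM in Yorkshire glia and at most 7.59 and 7.05 CPM elsewhere. In a list of mitochondrial channel and import genes, 6 of 8 were measured. MCU, the calcium uniporter of the inner membrane, was called higher in satellite cells and tenocytes, and VDAC3, a channel of the outer membrane, in mural cells.

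Of the 9 nucleotide sugar carriers and other carriers of the Golgi and endoplasmic reticulum, 5 were called in no class (55.6%, against 37% of all genes). SLC35A2, the carrier of UDP-galactose, was led by tenocytes at 25.3 and 21.6 CPM, and SLC35A1, the carrier of CMP-sialic acid, was called in none. Among the genes matched by symbol only, the scaffold gene SLC9A3R2 had 928 CPM (856 to 1004) in GDSS and 893 CPM (870 to 917) in Yorkshire endothelial cells, and mural cells followed with 184 and 107 CPM. It was the largest difference in CPM between a leading and a next class after SLC25A6.

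ABC transporters, which use ATP and are not solute carriers, were measured for 7 of 10 listed genes. Stromal cells had 3 called higher (ABCA6, ABCA8 and ABCA9, where 14.5% of all genes were) and 1 lower (ABCC1, 4.23%). ABCA9 had 414 CPM in GDSS and 456 CPM in Yorkshire stromal cells and at most 37.3 and 44.5 CPM elsewhere. Macrophages also had 3 called higher (ABCA1, ABCC1 and ABCG2, background 15.3%) and 1 lower (ABCA8, 18.3%). In satellite cells 1 was called higher (10.3%) and 4 lower (7.85%). Endothelial cells had 2 higher (13.2%) and 3 lower (8.1%), and mural cells 2 higher (12.5%) and 3 lower (5.18%). Glia had 1 higher (11%) and 1 lower (8.17%), and tenocytes 2 higher (14.5%) and none lower (7%).

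The second comparison set the GDSS library against the Yorkshire library within each class. A ratio was taken where both sums of a class together held at least 100 UMIs, and genes at least 1.5-fold apart were counted. The sums differ in size, as in satellite cells with 854477 UMIs in GDSS and 13572245 in Yorkshire. A gene can therefore pass this limit mainly through the 1 library in which it is high. Several of the extreme ratios below, with few UMIs on 1 side, are open to this selection, and its part was not tested. Of 135 transporters measured in stromal cells, 13 were higher in GDSS (9.63%, where 6.14% of all genes measured were) and 21 higher in Yorkshire (15.6%, background 17.5%). The median log2 ratio of all genes was -0.16 with CPM and 0.07 with TMM factors in stromal cells. The stromal split depended on that scaling: with TMM factors 19 were higher in GDSS and 7 in Yorkshire, and with median-of-ratios factors 14 and 9. Such factors shift all genes of a class alike, and the shares of all genes under them are not given here. Whether a split under these factors, here or below, is particular to the listed genes was not tested.

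In satellite cells 99 transporters were measured, 9 higher in GDSS (background 13.6%) and 30 higher in Yorkshire (30.3% of them, background 21.8%). With median-of-ratios factors the split was 15 and 25, and the median log2 ratio of all genes moved from -0.08 to 0. In endothelial cells 57 were measured, 8 higher in GDSS (background 8.06%) and 10 higher in Yorkshire (16%). The smaller classes had few measured. In mural cells 3 of 33 were higher in GDSS (7.02%) and 7 in Yorkshire (15.4%), in glia 1 of 12 (10.5%) and 2 (21.5%), in macrophages 2 of 22 (11.9%) and 6 (14.2%), and in tenocytes 6 of 43 (11.3%) and 5 (10.2%). Over these 4 classes together the split was 12 in GDSS and 20 in Yorkshire, 16 and 14 with TMM factors and 17 and 18 with median-of-ratios factors. The median log2 ratio of the transporters lay between -0.26 (macrophages) and 0.14 (glia), and that of all genes between -0.16 (stromal cells) and 0.02 (tenocytes).

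**Figure D4:**
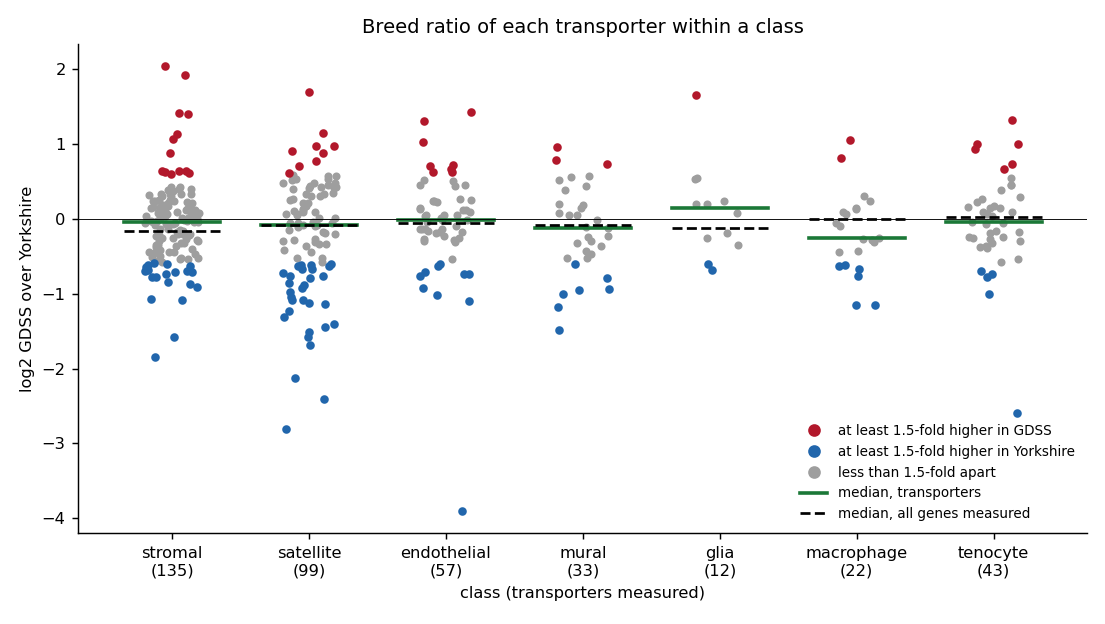
Log2 ratio of GDSS over Yorkshire of each transporter measured in a class (points, the number measured in brackets), with the median of the transporters (green line) and of all genes measured (black dashes). Most points lie within 1.5-fold (grey), and the blue points of satellite cells, higher in Yorkshire, number 30 against 9 red ones.

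In stromal cells 2 amino acid exchangers had the highest ratios, while the 23 amino acid carriers measured there split into 4 higher in GDSS (background 6.14%) and 6 higher in Yorkshire (17.5%). With TMM factors the split was 6 and 2, and with median-of-ratios factors 4 and 4. SLC7A5 had 9.82 CPM (242 UMIs) in GDSS and 2.39 CPM (16 UMIs) in Yorkshire, a ratio of 4.11 (2.48 to 7.31). SLC7A11 had 5.64 CPM (139 UMIs) in GDSS and 1.49 CPM (10 UMIs) in Yorkshire, a ratio of 3.78 (1.996 to 8.06). SLC7A1, the arginine and lysine carrier, had 7.87 and 3.58 CPM, a ratio of 2.20 (1.43 to 3.52), and its log2 ratio of 1.14 became 0.49 with classes taken from clusters. The lower bounds of all 3 intervals lay above 1. Of 9 amino acid response genes measured in stromal cells, 5 were higher in GDSS (where 6.14% of all genes were) and 1 (PSAT1) in Yorkshire (17.5%). The log2 ratio of this list had a median of 0.63. With TMM factors 6 were higher in GDSS and none in Yorkshire, and the median was 0.86. The 5 higher in GDSS included TRIB3, with 63.2 CPM in GDSS and 30.6 CPM in Yorkshire, and the stress regulator ATF4, with 1949.6 and 1263 CPM.

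Other stromal transporters higher in GDSS were SLC47A1, with 13.1 CPM in GDSS and 4.92 CPM in Yorkshire (ratio 2.67, 1.86 to 3.95), and SLC17A9, with 19.4 and 7.31 CPM (ratio 2.65, 1.98 to 3.64). SLC17A9 was also higher in GDSS tenocytes, with 40.9 CPM against 16.3 CPM in Yorkshire tenocytes. At the other end stood SLC27A6, with 2.07 CPM in GDSS and 7.46 CPM in Yorkshire stromal cells, 3.60-fold (2.39 to 5.43) higher in Yorkshire. SLC16A7 had 15.6 and 46.5 CPM, 2.98-fold (2.56 to 3.47) higher in Yorkshire. SLC43A1 (10.3 and 21.6 CPM) and SLC37A1 (3.53 and 7.46 CPM), a sugar phosphate exchanger, were each 2.11-fold higher in Yorkshire, SLC11A2 (13.4 and 25.2 CPM), the divalent metal importer, 1.88-fold, and SLC37A4 (6.45 and 11.8 CPM), the glucose-6-phosphate carrier, 1.83-fold. The tenocyte and nerve sheath lists, given above, were also higher in Yorkshire stromal cells. When cells were clustered, the stromal clusters were mixed unlike in the 2 libraries. The largest held 2652 GDSS and 30 Yorkshire cells, and another held 575 and 1007. A ratio in stromal cells therefore cannot be told apart from a difference in this mix. The part of the lists and of the mix in the stromal ratios was not tested.

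In satellite cells the transporters higher in Yorkshire included carriers of creatine, chloride, amino acids and lactate. SLC6A8 had 24.6 CPM (21 UMIs) in GDSS and 79.4 CPM (1078 UMIs) in Yorkshire, 3.23-fold (2.10 to 5.24) higher in Yorkshire. SLC12A2 had 24.6 CPM (21 UMIs) and 70.2 CPM (953 UMIs), 2.86-fold (1.86 to 4.64) higher in Yorkshire. SLC45A4, of the SLC45 family, had 7.02 CPM (6 UMIs) and 30.6 CPM (415 UMIs), 4.35-fold (1.98 to 11.9) higher in Yorkshire. The GDSS sum of this class holds few UMIs, so the intervals are wide.

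SLC47A2 (1 UMI in GDSS and 111 in Yorkshire) was 6.99-fold (1.23 to 278) higher in Yorkshire, and the glutamate carrier SLC1A2 (2 and 169 UMIs) 5.32-fold (1.45 to 44.3). The heavy chain SLC3A2 had 38.6 CPM in GDSS and 105 CPM in Yorkshire satellite cells, and the lactate carrier SLC16A1 28.1 and 66.2 CPM. Higher in GDSS were SLC29A1, with 29.3 CPM in GDSS and 8.99 CPM in Yorkshire (ratio 3.25, 2.03 to 5.04), SLC10A1 (2.22, 1.77 to 2.76) and SLC38A10 (1.97, 1.34 to 2.82). SLC48A1 (1.96), SLC25A20 (1.87) and SLC25A40 (1.84) followed, each with an interval that reaches below 1. The mural and myofibre lists were higher in GDSS satellite cells, as given above, and their part was not tested.

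Some transporters had ratios on the same side in several classes, and 97 were measured in at least 2. SLC38A2 was at least 1.5-fold higher in Yorkshire in 4 of 7 classes: it had 279 CPM in GDSS and 530 CPM in Yorkshire satellite cells, 469 and 952 CPM in endothelial cells, 127 and 282 CPM in macrophages and 202 and 347 CPM in tenocytes. Elsewhere its log2 ratio was -0.52 in stromal cells, -0.42 in mural cells and 0.08 in glia. SLC44A1 was higher in Yorkshire in endothelial cells (16.7 and 35.7 CPM), mural cells (21.8 and 37.8 CPM) and glia (148 and 225 CPM). SLC5A3 was higher in Yorkshire in 3 of 4 classes and SLC1A2 in all 3 measured, with 9.36 CPM in GDSS and 56.4 CPM in Yorkshire tenocytes, 6.03-fold (3.84 to 9.82) higher in Yorkshire.

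SLC10A1 was at least 1.5-fold higher in GDSS in 4 of 5 classes measured. It had 112 CPM in GDSS and 53.4 CPM in Yorkshire stromal cells, 110.0 and 49.6 CPM in satellite cells, 161 and 59.9 CPM in endothelial cells and 94.8 and 48.7 CPM in mural cells, and 91.6 and 81.2 CPM in tenocytes. SRSF5, a splicing factor gene chosen here because it lies next to SLC10A1 in the RefSeq table, had log2 ratios of 0.34, -0.46, 0.90, 0.23 and -0.04 in these classes. SLC19A2 was higher in GDSS in 4 classes, among them glia with 187 CPM in GDSS and 59.3 CPM in Yorkshire and endothelial cells with 71.4 and 28.8 CPM, and higher in Yorkshire in macrophages, with 76.9 and 172 CPM. In satellite cells, its leading class, the log2 ratio was -0.10. In mural cells its log2 ratio of 0.73 became 0.18 with at most 5% mitochondrial UMIs per cell.

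**Figure D5:**
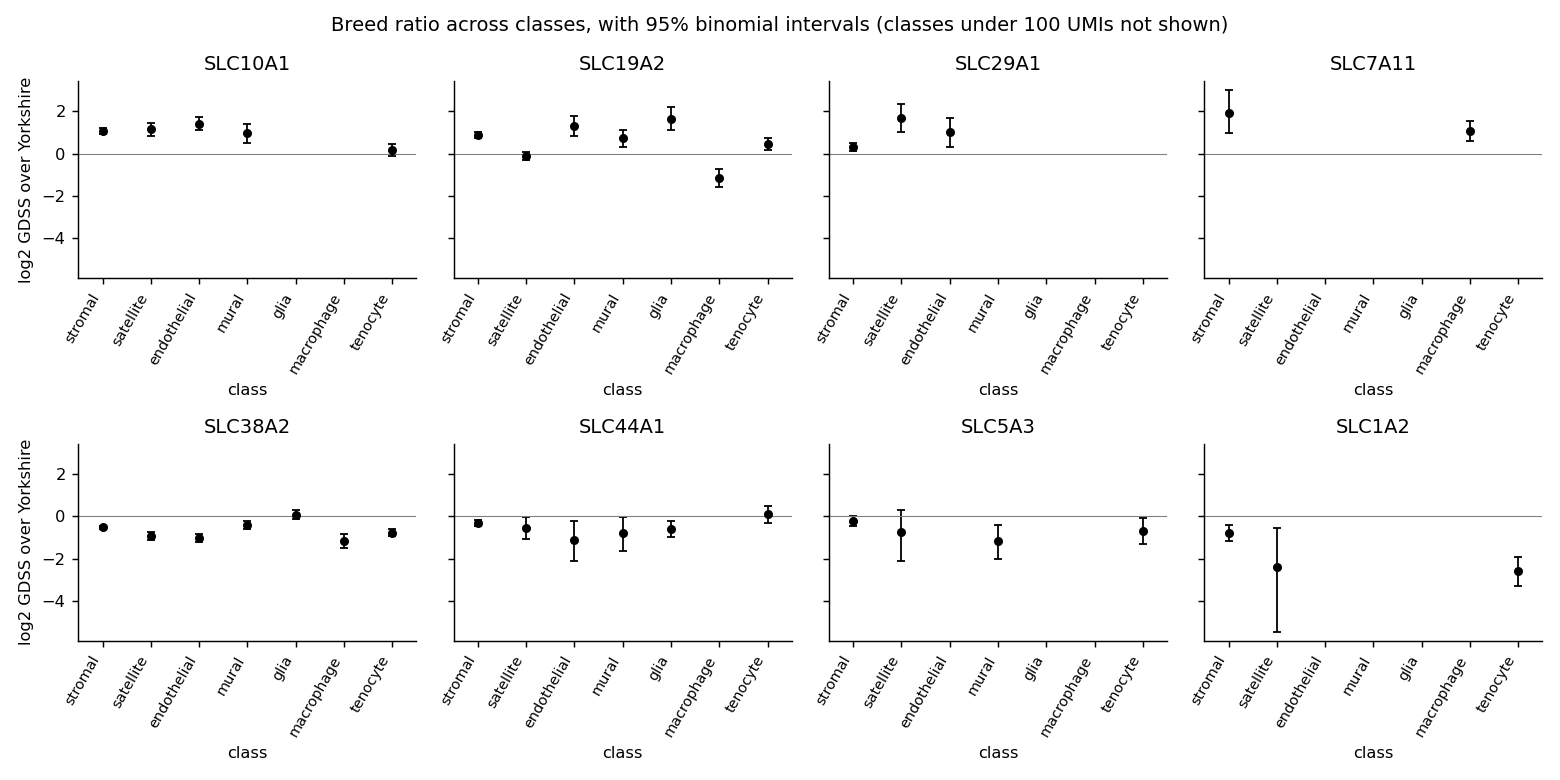
Log2 ratio of GDSS over Yorkshire with 95% binomial intervals (counting error only) for 8 transporters in every class in which both sums together held at least 100 UMIs. SLC10A1 lies above 0 in all 5 classes shown and SLC1A2 below 0 in all 3, while SLC19A2 lies at 1.65 in glia and at -1.16 in macrophages.

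In mural cells SLC4A7 had 92.2 CPM in GDSS and 258 CPM in Yorkshire, 2.80-fold (2.19 to 3.62) higher in Yorkshire, SLC5A3 21.8 and 49.1 CPM, and SLC7A2 37.2 and 74.4 CPM. SLC2A4 differed by a log2 ratio of 0.15 there. In macrophages SLC7A11 was 2.08-fold (1.52 to 2.92) and SLC39A14 1.77-fold (1.33 to 2.38) higher in GDSS, and SLC49A3 had 82.9 CPM in GDSS and 141 CPM in Yorkshire. Beside these, HMOX1 had a log2 ratio of 1.69, and the neutrophil list was higher in Yorkshire. The amino acid response genes ATF4 and ATF3 had log2 ratios of -0.40 and -1.37 there. In glia SLC12A2 was 1.60-fold (1.16 to 2.24) higher in Yorkshire, and in tenocytes SLC43A3 was 2.01-fold (1.49 to 2.73) higher in Yorkshire and SLC9A3R2 1.99-fold (1.47 to 2.73) higher in GDSS.

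Endothelial cells had the ratio farthest from 1 of any class: SLC66A3, of a family of lysosomal amino acid exporters, had 1.52 CPM (1 UMI) in GDSS and 22.8 CPM (142 UMIs) in Yorkshire, 14.98-fold (2.65 to 596) higher in Yorkshire. With 1 UMI on the GDSS side its size is poorly fixed. In stromal cells the same gene had 6.25 CPM in GDSS and 11.2 CPM in Yorkshire, and in macrophages, its leading class, 51.3 and 46.96 CPM. SLC29A1 was 2.04-fold (1.24 to 3.22) higher in GDSS endothelial cells. The genes led by this class, SLCO2A1, SLC16A14 and SLC9A3R2, had 53.2, 31.9 and 928 CPM in GDSS and 59.5, 49.2 and 893 CPM in Yorkshire.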

How the data were processed

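Raw UMI counts per gene and barcode were deposited. The submitters' processing notes name Cell Ranger and R 3.5.2, and the counts come from software version 3.1.0, per the file headers. The build, the annotation and the use of strand are not given in the sources used here. Both breeds list 21301 features, 14846 with a symbol, and 680 more were named from the reference tables. In the RefSeq table (Sscrofa11.1) 162 of the 169 genes were found, 59 of them overlapping another gene.

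Cells were kept with at least 500 genes, at most 10% mitochondrial UMIs and a scrublet doublet score under 0.3. The automatic doublet threshold marked 0 GDSS cells and was not used. The score limit took out 540 GDSS and 1156 Yorkshire cells. A class needed 2 stromal (of 5 markers), 2 satellite (of 8), 3 endothelial (of 10), 2 mural (of 8), 2 glial (of 5), 3 macrophage (of 10) or 4 tenocyte (of 8) markers, no other class, and under 4 myofibre markers. Cells of several classes (414 and 648) or of none (846 and 2831) were left out.

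Counts were summed per library and class. CPM carry exact Poisson intervals and ratios exact conditional binomial ones. Class contrasts used edgeR 4.0.16 (R 4.3.3), with library as a block, over genes with at least 100 UMIs. The fit and the ratios were also tested on simulated data. Other tools were Python 3.11.15, scanpy 1.11.5, numpy 2.4.6, scipy 1.17.1, pandas 2.3.3, matplotlib 3.10.9 and DESeq2 1.42.0.

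Genes named are the 6 called transporters with the largest fold per class, the 6 highest and 6 lowest breed ratios in stromal and satellite cells (3 and 3 in other classes), and the 2 with most UMIs per substrate group. A few genes the rule names are not reported here. Others were picked after their values were seen. The genes, lists and tests were chosen with earlier results of these data known. Alternatives changed the scaling, the UMI minimum, the test, the class definition, the doublet and mitochondrial limits, depth, the library block and the classes fitted.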

Additional observations from a re-analysis of the deposited data

Results flagged for a closer look

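For 5 transporters the ratio of GDSS over Yorkshire lay at least 1.5-fold above 1 in one class and at least 1.5-fold below 1 in another. With 1 library per breed the difference between classes was not tested. SLC19A2, a thiamine carrier, had a log2 ratio of 1.65 in glia (187 CPM in GDSS, 59.3 CPM in Yorkshire) and of -1.16 in macrophages (76.9 and 172 CPM). SLC7A1, a cationic amino acid carrier, had 1.14 in stromal cells (7.87 and 3.58 CPM) and -0.98 in satellite cells (14.04 and 27.8 CPM). The stromal value became 0.49 when classes were taken from clusters. SLC1A5, the glutamine carrier, had 0.67 in endothelial cells (72.9 and 45.8 CPM) and -0.79 in satellite cells (102 and 176 CPM). SLC39A14, a zinc and iron importer, had 0.82 in macrophages (209 and 118 CPM) and -0.74 in tenocytes (21.8 and 36.4 CPM). SLC25A29, a mitochondrial carrier of basic amino acids, had 1.01 in tenocytes (29.6 and 14.8 CPM) and -0.69 in stromal cells (13.7 and 22.1 CPM).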

How the results depend on the processing

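Of the counts of genes recomputed under the alternatives, 137 stayed within 1.5 times the reported count and 38 did not. Shares of all genes under the alternatives are not given here, so these counts have no background beside them. Of the values of single genes, 640 kept their side and size, 12 moved beyond their counting interval, 5 lost a call and none changed direction. With at most 5% mitochondrial UMIs, genes called lower numbered 7 in stromal, 9 in satellite, 17 in endothelial, 7 in mural and 6 in glial cells, and those called higher 5 in mural and 12 in glial cells. SLC7A2 lost its call in glia there (log2 fold 1.53). Mural genes called lower numbered 11 with DESeq2 and 11 without the macrophage class, and stromal ones 7 with no library term. Breed counts followed the UMI minimum and depth. At 50 UMIs, satellite, endothelial and the 4 smaller classes had 18, 13 and 32 higher in GDSS, and endothelial and the smaller classes 19 and 41 higher in Yorkshire. At 500 UMIs, stromal, satellite, endothelial and the smaller classes had 7, 1, 0 and 0 higher in GDSS, and 6, 12, 1 and 4 higher in Yorkshire. With cells thinned to 1500 UMIs, satellite, endothelial and the smaller classes had 3, 1 and 2 higher in GDSS, and stromal, satellite, endothelial and the smaller classes 13, 16, 2 and 6 higher in Yorkshire. Stromal genes higher in Yorkshire numbered 7 with TMM and 9 with median-of-ratios factors, and satellite genes higher in GDSS 15 with the second. Cluster classes gave 7 stromal and 14 satellite genes higher in GDSS, no doublet limit 13 endothelial ones, and 5% mitochondrial UMIs 7 and 9 in the smaller classes. Higher minimums and thinning leave fewer genes measured, and for the rest the cause was not tested. No paired analysis was possible because each breed has 1 library, and no replicate could be left out.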

Other observations

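Of the 11 amino acid response genes 4 were called higher (where 11% of all genes were) and 1 (SHMT2) lower (8.17%) in glia by edgeR. The median log2 fold of the list there was 0.07. In tenocytes 4 were called higher (14.5%) and 1 lower (7%), with a median of -0.08. PHGDH, an enzyme of serine synthesis chosen from this list after its values were seen, had 129 CPM in GDSS and 214 CPM in Yorkshire glia and 78.0 and 41.1 CPM in tenocytes, and it was called lower in endothelial cells (1.52 and 0.641 CPM) and macrophages (0.658 and 0 CPM). In the same glia MT3, a metal-binding metallothionein, had 59.4 CPM in GDSS and 133 CPM in Yorkshire, while MT1A was called higher in endothelial cells with 45.6 and 84.3 CPM.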
